A study of Mus musculus with 80 samples.

Results

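The small leucine-rich proteoglycans were examined as a family of 10 genes, chosen by symbol from the 25900 genes of the deposited expression table: *Dcn*, *Bgn*, *Aspn*, *Lum*, *Fmod*, *Prelp*, *Kera*, *Omd*, *Ogn* and *Podn*. Muscle stem cells (MuSCs) had been sorted by nuclear GFP from extraocular muscles (EOM) and Tibialis anterior (TA) of Tg:Pax7-nGFP males (C57BL/6;DBA2 F1/JRj), 7 or 7.6 weeks old, in which the promoter of the MuSC gene *Pax7* drives the reporter. Cells of each muscle were sequenced directly (pre-graft, 500 cells a library) or injected into TA of Rag2-/-;γC-/- mice, which lack lymphocytes, after injury of both TAs with cardiotoxin, EOM cells into one leg and TA cells into the other. GFP+ cells were sorted again at day 21 by the labels (post-graft, from 9 cells a library, with medians of 35 for EOM and 26 for TA by the labels), so a post-graft library holds whatever cells passed the GFP gate, and its few cells are compared with 500. The study's own text gives a later time for this sort, and its table of libraries gives other cell numbers for some of them, so neither is certain. The study passed 30 of 40 RNA libraries: 8 EOM and 8 TA pre-graft, 7 EOM and 7 TA post-graft, from 10 donors in 2 experiments.

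Small leucine-rich proteoglycans are secreted proteins of the extracellular matrix, built around a curved stack of leucine-rich repeats. Most bind collagen, regulate how thick its fibrils grow, and many carry chains of chondroitin, dermatan or keratan sulfate. Several also hold growth factors of the TGF-β family in the matrix or bind receptors at the cell surface. In skeletal muscle they are made in quantity by fibroblast-like cells of the interstitium and by tendon cells, and MuSCs lie against a matrix that contains them.

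Levels are log2 RPM, library-scaled reads on the log2 scale as deposited, where having no read corresponds on average to -1.25, -0.89, -0.83 and -0.92 in EOM pre-graft, TA pre-graft, EOM post-graft and TA post-graft libraries. Reads on genes, recovered from these values, number 963432 to 4169357 in pre-graft and 1357233 to 2899135 in post-graft libraries. By the authors' quality tables, mitochondrial reads are a mean of 4.48% and 11.3% in EOM and TA before grafting against 31.4% and 24.9% after it. Of the recovered reads on genes, the mitochondrial share reached 0.81, in post-graft TA of mouse 3 of Experiment 2. A gene was called where limma gave an adjusted p under 0.05 over all genes tested and the fold exceeded 1 on the log2 scale, in either direction. Each library of a group is from its own donor mouse, and p-values measure the spread between these libraries. One pre-graft TA library, mouse 2 of Experiment 2, stood apart from the other 7 in *Dcn* and *Lum*, and results that rest on it are given with and without it.

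Before grafting, *Bgn*, *Ogn* and *Prelp* were read in all 16 libraries, and *Bgn* was lower in every TA library than in any EOM library. *Dcn* was read in all 8 EOM libraries and was nearly absent from 7 of 8 TA libraries. *Lum* had reads in 6 of 8 EOM libraries and 1 of 8 TA libraries and was not called. The other members were low or sporadic, with *Kera* limited to 1 EOM library of the 16. Of the 10 members, 8 passed the filter on low values, and 0 were called higher and 2 lower in TA, against 1.26% and 3.31% of the 13217 genes tested. The median log2 fold change of the 8 was -1.20, beside -0.30 over all genes tested.

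*Bgn* encodes biglycan, a class I member with chondroitin or dermatan sulfate chains that binds collagen, the sarcoglycan complex of the muscle membrane and the innate immune receptors TLR2 and TLR4 (ENSMUSG00000031375, GRCm38, chromosome X, 73483602 to 73495933, plus strand). It had 689 to 2397 reads in the EOM libraries (median 1117) and 95 to 390 in the TA libraries (median 178). Its level ran from 8.58 to 9.71 in EOM (median 9.01) and from 5.58 to 7.57 in TA (median 6.89), so the groups did not overlap, which holds in this direction for 1.81% of genes tested. The log2 fold change of TA over EOM was -2.25 (SE 0.23, adjusted p = 9.14e-07 by limma), a 4.75-fold difference, and TA was lower in 7 of the 7 donors with both libraries. It was called in Experiment 1 alone (-1.86, adjusted p = 0.000688 by limma) and in Experiment 2 alone (-2.47, adjusted p = 0.000113). The two-sided exact permutation p over the libraries, computed for *Bgn* alone, was 0.000155, the smallest that 8 against 8 can give. That value follows from the lack of overlap and ignores the pairing by donor, so it adds no further support.

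*Ogn* encodes osteoglycin, also called mimecan, a class III member that binds collagen (ENSMUSG00000021390, chromosome 13, 49608071 to 49624500, plus strand). Its level ran from 7.77 to 8.57 in EOM (407 to 1026 reads) and from 6.56 to 8.71 in TA (141 to 750 reads). The groups overlapped, and the log2 fold change of -0.42 (SE 0.22, adjusted p = 0.253 by limma) was close to the median of all genes. *Prelp* encodes a class II member with an arginine- and proline-rich end that binds heparan sulfate, and anchors basement membranes to collagen (ENSMUSG00000041577, chromosome 1, 133910304 to 133921414, minus strand). It ran from 7.60 to 8.45 in EOM (370 to 933 reads) and from 3.01 to 8.01 in TA (16 to 451 reads), and was lower in TA in 7 of 7 donors. The log2 fold change of -1.20 (SE 0.48) had an adjusted p of 0.124 by limma.

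The sequence before the start of transcription is shown for *Bgn* and *Ogn*, which were read in all 30 libraries and of which *Bgn* was called between muscles, and for *Aspn*, which was called in both post-graft comparisons. Each is 250 bases on the gene's strand from the RefSeq promoter table for GRCm38.p6, which has entries for 8 of the 10 members and none for *Dcn* and *Lum*. The windows are chrX:73483351-73483600, chr13:49607765-49608014 and chr13:49544193-49544442. Capitals mark matches on either strand to 5 motifs: the E box CAGCTG bound by myogenic factors, the TEAD site GGAATG, the AP-1 site TGANTCA, the GC box GGGCGG and the TATA box TATAAA, and where matches overlap or touch the capitals run on.
*Bgn*: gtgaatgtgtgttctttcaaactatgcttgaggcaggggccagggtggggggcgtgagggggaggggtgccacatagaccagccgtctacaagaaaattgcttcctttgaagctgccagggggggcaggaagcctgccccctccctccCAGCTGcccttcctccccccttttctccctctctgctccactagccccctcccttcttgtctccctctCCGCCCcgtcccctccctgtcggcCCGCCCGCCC
*Ogn*: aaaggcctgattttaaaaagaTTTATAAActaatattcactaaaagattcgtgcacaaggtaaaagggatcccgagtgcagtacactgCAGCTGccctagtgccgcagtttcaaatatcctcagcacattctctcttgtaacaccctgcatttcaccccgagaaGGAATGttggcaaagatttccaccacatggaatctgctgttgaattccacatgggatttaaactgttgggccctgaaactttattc
*Aspn*: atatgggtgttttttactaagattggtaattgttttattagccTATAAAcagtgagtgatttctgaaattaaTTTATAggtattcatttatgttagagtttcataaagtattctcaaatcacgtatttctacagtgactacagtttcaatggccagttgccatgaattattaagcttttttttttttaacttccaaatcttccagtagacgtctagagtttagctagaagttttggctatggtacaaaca
The *Bgn* window holds 64.4% G and C, with 1 E box 102 bases before the start and 3 GC boxes within its last 34 bases. The *Ogn* window holds 42.0% G and C, with 1 E box, 1 TEAD site 86 bases before the start, and 2 overlapping TATA box matches 229 and 227 bases before it. The *Aspn* window holds 30% G and C and 2 TATA box matches, and neither *Prelp* nor *Fmod* holds any of the 5 motifs in its window. The windows of *Kera* and *Omd* hold none either. Over all 32851 windows of the table, 13.0% hold the E box, 12.6% the TEAD site, 6.75% the AP-1 site, 32.7% the GC box and 12.4% the TATA box.

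*Dcn* encodes decorin, the best known class I member, which binds collagen I and holds TGF-β and myostatin (ENSMUSG00000019929, chromosome 10, 97479500 to 97518162, plus strand). In EOM it had 49 to 1314 reads (median 112.5), a level of 4.49 to 9.13. In TA, 7 of 8 libraries had 0 to 3 reads, and mouse 2 of Experiment 2 had 2413 reads, a level of 9.98 above that of every EOM library. The groups therefore overlapped through 1 library, and 6 of 7 donors were lower in TA. The log2 fold change of -5.62 (SE 1.24) had an adjusted p of 0.00592 by limma, and without that library it was -6.91 (SE 0.75, adjusted p = 3.55e-06). With tests on recovered reads, which compare means, the call was lost (edgeR -0.13, adjusted p = 0.980, and DESeq2 -0.11, adjusted p = 0.990), and without that library edgeR called it at -8.26 (adjusted p = 7.39e-05). The other 7 TA libraries lay at or near the value of no read. The limma values and the edgeR value of -8.26 are therefore no measure of size. In Experiment 2 alone the adjusted p was 0.0805 by limma, and in Experiment 1 alone *Dcn* did not pass the filter on low values, with 3 of 5 libraries above it.

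*Lum* encodes lumican, a class II member with keratan sulfate chains that shares a binding site on collagen I with fibromodulin (ENSMUSG00000036446, chromosome 10, 97565501 to 97572703, plus strand). It had 23 to 207 reads in 6 of 8 EOM libraries and none in the other 2, and 0 reads in 7 of 8 TA libraries against 238 in mouse 2 of Experiment 2. For *Lum*, the log2 fold change of -3.11 (SE 1.18, adjusted p = 0.108 by limma) was not called. With the donor mouse as a replicate block it was called (-3.54, adjusted p = 0.0217), and so it was without the TA library of mouse 2 of Experiment 2 (-4.04, adjusted p = 0.0127). In edgeR it went from -0.40 (adjusted p = 0.927) with that library to -8.49 (adjusted p = 0.00775) without it. The latter, like the limma value of -4.04, is against libraries all at 0 and so no measure of size.

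The TA library of mouse 2 of Experiment 2 was the one of 8 that also had reads of *Smoc2* (394), *Mfap5* (156) and *Pdgfra* (5), markers of fibro-adipogenic progenitors, interstitial fibroblast-like cells of muscle. Of 22 such markers 20 had reads in it, against 11 to 15 in the other TA libraries, while their summed level of 5744 RPM lay within the 4399 to 6639 RPM of the other 7. In the EOM libraries 14 to 20 of the markers had reads, with a sum of 6121 to 9113 RPM. Between TA and EOM, 0 of 20 tested markers of this list were called higher and 4 lower (median log2 fold change -0.70, beside -0.30 over all genes). *Pi16*, another of these markers, had reads in all 8 EOM libraries (5 to 1403) and in 2 of 8 TA libraries, and *Cfd* was at 0 in every library of all groups. *Dpt*, *Gsn* and *Serping1* were abundant throughout, with at least 861 reads each in every pre-graft library, beside 562 to 2699 reads of *Pax7*. In the TA library of mouse 2 of Experiment 2 they had 1334, 6350 and 1666 reads and made up most of the sum. The summed level therefore says little about the rarer markers of the list. The markers named here were picked from the list after their values were seen.

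Markers of other cell types were compared before grafting as well. Of 9 endothelial markers 1 was called higher and 1 lower in TA, with 8 positive values and a median log2 fold change of 3.00. Of 11 tested Schwann cell markers 0 were called higher and 2 lower, with 10 negative values and a median of -1.59. Of 7 mural markers 1 was called higher and 0 lower (median 0.56). Of 14 muscle stem cell markers 2 were called higher and 1 lower (median 0.07), and of 9 tested myofibre markers 2 and 1 (median 1.47). Of 4 tested tendon and 4 tested macrophage markers 0 were called, with medians of -0.93 and -1.62. Over all genes tested 1.26% were called higher and 3.31% lower, with a median of -0.30. The TA library of mouse 2 of Experiment 2, which was high in *Dcn* and *Lum*, had the highest endothelial sum of the TA libraries, 2387 RPM against 19.2 to 1663 in the other 7. In EOM, macrophage markers summed to 2183 RPM in mouse 2 of Experiment 2, against 25.2 to 98.4 RPM in the other EOM libraries. The part of any of these cells in the *Bgn*, *Dcn* and *Lum* differences was not tested, and in bulk libraries more cells of a type and more RNA a cell cannot be told apart.

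Among EOM libraries the same 3 that had the most *Dcn* also had the most *Lum*. Mouse 3 of Experiment 1 had 1062 *Dcn* and 75 *Lum* reads, mouse 1 of Experiment 2 had 672 and 76, and mouse 2 of Experiment 2 had 1314 and 207. Their *Pi16* reads were 77, 451 and 1403, and their *Mfap5* reads 5, 95 and 385, against 5 to 112 and 0 to 19 in the other 5 EOM libraries. *Bgn*, *Ogn* and *Prelp* took 53.1% to 72.3% of all member reads in these 3, and 94.0% to 96.4% in the other 5. The plot of member reads by library shows this difference in make-up beside the TA library of mouse 2 of Experiment 2, where *Dcn* alone took 60.9%.

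**Figure D1:**
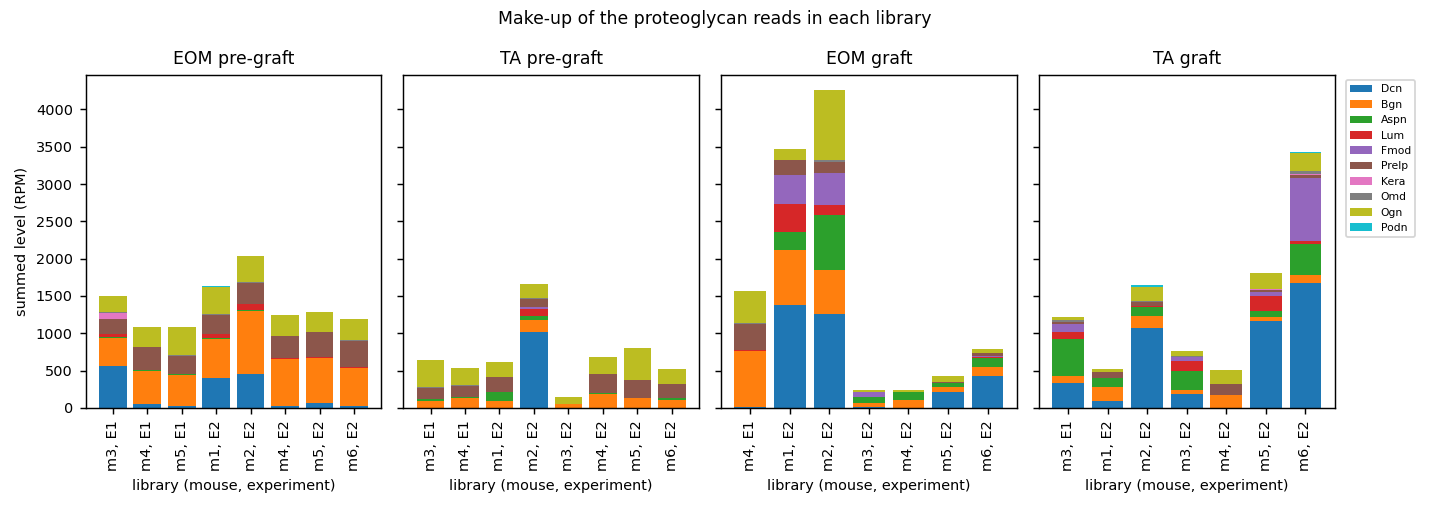
Summed level of the 10 small leucine-rich proteoglycan genes in RPM, stacked by gene, in each of the 30 libraries (m, mouse; E, experiment). Pre-graft bars are mostly *Bgn*, *Ogn* and *Prelp*, and in most post-graft bars *Dcn*, *Aspn* or *Fmod* take the larger share.

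Of the other class I and class II members, *Aspn* encodes asporin, which binds collagen and TGF-β and carries no glycosaminoglycan chain (ENSMUSG00000021388, chromosome 13, 49544443 to 49567557, plus strand). It had 0 to 54 reads in EOM and 0 to 221 in TA, and was higher in TA in 6 of 7 donors, by 1.35 on the log2 scale (SE 1.17, adjusted p = 0.494 by limma). *Omd* encodes osteomodulin, a keratan sulfate proteoglycan first known from bone (ENSMUSG00000048368, chromosome 13, 49582766 to 49592609, plus strand), and had 0 to 38 reads in EOM and 0 to 27 in TA. Its log2 fold change of -1.20 (SE 0.81) had an adjusted p of 0.372. *Fmod* encodes fibromodulin, a regulator of collagen crosslinking abundant in tendon (ENSMUSG00000041559, chromosome 1, 134037254 to 134048277, plus strand). It had reads in 2 EOM libraries (1 and 8) and 2 TA libraries (15 and 50), and was not tested before grafting.

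*Kera* encodes keratocan, known from the cornea (ENSMUSG00000019932, chromosome 10, 97607205 to 97613688, plus strand). It had 172 reads in EOM of mouse 3 of Experiment 1 and none in the other 15 pre-graft libraries, and failed the filter in every comparison. *Podn* encodes podocan, a class V member (ENSMUSG00000028600, chromosome 4, 108014791 to 108096445, minus strand). It had 0 to 24 reads in EOM and 0 to 16 in TA, a difference of -0.37 on the log2 scale (SE 0.87, adjusted p = 0.821 by limma). The *Podn* gene model overlaps *Scp2* on the same strand (21 to 396 reads a library), and *Aspn*, *Omd* and *Ogn* lie within *Cenpp* on the other strand (0 to 23 reads). *Prelp* overlaps Gm15851 on the other strand (0 to 113 reads). The sources used here do not say whether strand was used in counting, so reads of such pairs may be shared, which matters most for *Podn*.

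**Figure D2:**
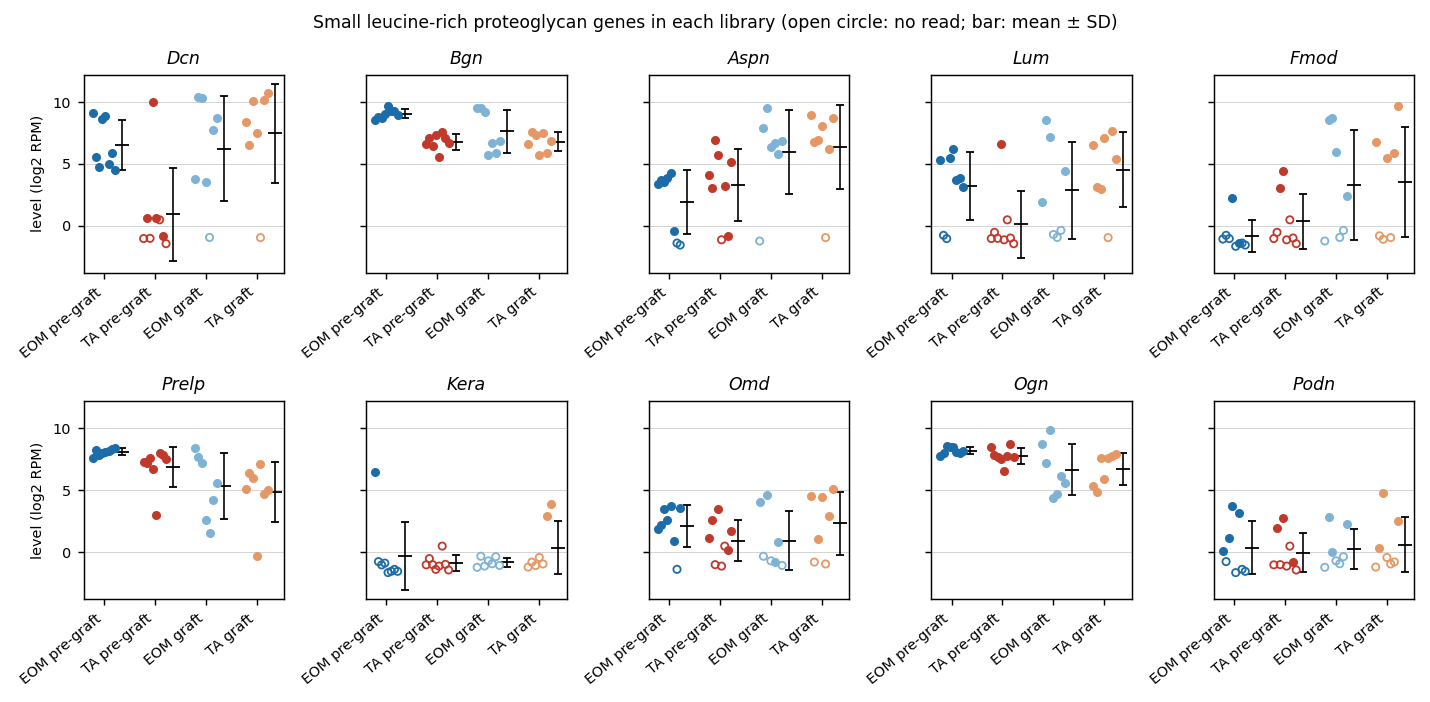
Level of each member in log2 RPM (vertical axis) in the 30 libraries by group. Filled points are libraries with reads, open circles libraries without a read, and bars the mean and SD. *Bgn* is the member whose pre-graft groups do not overlap, and in 7 of 8 pre-graft TA libraries *Dcn* has 0 to 3 reads and *Lum* 0.

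Per length of exon (RPM per kb of all exons joined), the order of mean levels in pre-graft EOM was *Ogn* (118 ± 23.2, SD, n = 8), *Bgn* (89.2 ± 24), *Prelp* (77.7 ± 13.9) and *Dcn* (34.4 ± 39.4). *Bgn* and *Prelp* differed by less than their SD. By mean RPM, without length, the order in pre-graft EOM was *Bgn* (544), *Ogn* (303), *Prelp* (281) and *Dcn* (201). The place of *Bgn* and *Ogn* thus depends on the exon length used. In pre-graft TA it was *Ogn* (94.3 ± 40.3, SD, n = 8), *Prelp* (44.7 ± 21.7), *Dcn* (21.8 ± 61.3, from 1 library) and *Bgn* (19.7 ± 7.52). Within TA, *Bgn* thus stood below *Ogn* by more than the SD of either. In post-graft TA *Dcn* (110 ± 111, SD, n = 7) and *Aspn* (89.5 ± 78.5) led *Ogn* (55.0 ± 36.4) and *Fmod* (45.8 ± 93.5), with spreads that overlap. In post-graft EOM *Ogn* (92.8 ± 131, SD, n = 7), *Dcn* (81.0 ± 102.8), *Aspn* (80.8 ± 107) and *Bgn* (56.4 ± 54.0) did not differ beyond their spread.

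After grafting of TA cells, *Dcn*, *Lum* and *Aspn* were called higher than in pre-graft TA, and *Bgn*, *Prelp* and *Ogn* were not called. Of the 9 members tested 3 were called higher and 0 lower, against 3.79% and 30.9% of the 13076 genes tested. The median log2 fold change over all genes was -1.09 in this comparison, and that of the 9 members was 1.40. Changes are therefore also given relative to the median of all genes where this alters the reading.

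*Dcn* had 143 to 3303 reads in 6 of 7 post-graft TA libraries and 0 in mouse 4 of Experiment 2, a median level of 8.37 against -0.18 before grafting. The log2 fold change was 6.56 (SE 1.51, adjusted p = 0.00369 by limma), or 7.65 relative to the median of all genes, with 6 of 7 donors higher after grafting and no read in either library of the other. Without the pre-graft library of mouse 2 of Experiment 2 it was 7.86 (SE 1.23, adjusted p = 0.00037). On recovered reads edgeR gave 2.72 (adjusted p = 0.305) with that library and 10.76 (adjusted p = 0.000109) without it. Apart from that library, *Dcn* in pre-graft TA lay at or near the value of no read. The limma values and the edgeR value of 10.76 are therefore no measure of size.

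*Lum* had 14 to 313 reads in the same 6 post-graft TA libraries and 0 in mouse 4 of Experiment 2. Its log2 fold change was 4.42 (SE 1.23, adjusted p = 0.0106 by limma), with 5 of 7 donors higher, and 5.35 (SE 1.06, adjusted p = 0.00169) without the pre-graft library of mouse 2 of Experiment 2. All other pre-graft TA libraries had no read of *Lum*, so neither value measures size. In Experiment 2 alone it was 3.79 (adjusted p = 0.0662), and edgeR with all libraries gave an adjusted p of 0.140. *Aspn* had 115 to 1034 reads in those 6 libraries and 0 in mouse 4 of Experiment 2. Its log2 fold change of 3.11 (SE 1.22) had an adjusted p of 0.0495 by limma, close to the threshold. The call held in 4 of 15 limma fits that left out 1 library, those without post-graft mouse 4 or pre-graft mouse 1, 2 or 6 of Experiment 2, and was lost without any of the other 11 (adjusted p 0.0029 to 0.122 over the 15). It was also lost after centring on each library's median (adjusted p = 0.0525 by limma), with the experiment as covariate (0.0505) and in Experiment 2 alone (0.146), and was made by edgeR (3.66, adjusted p = 0.0307).

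*Fmod* had 55 to 1675 reads in 4 post-graft TA libraries and 0 in the other 3. Its log2 fold change of 3.23 (SE 1.41, adjusted p = 0.0722 by limma) was not called, and it was called by edgeR at 5.73 (adjusted p = 0.0201) and in limma without the pre-graft library of mouse 2 of Experiment 2 (3.80, adjusted p = 0.0388), as it was without post-graft mouse 1, 2 or 4 of Experiment 2. *Omd* had 0 to 68 reads and *Podn* 0 to 53, with log2 fold changes of 1.40 (SE 1.01, adjusted p = 0.263) and 0.64 (SE 0.89, adjusted p = 0.572). *Kera* had 12 and 30 reads in 2 of the 7 post-graft TA libraries, mouse 5 and mouse 6 of Experiment 2.

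*Bgn* ran from 65 to 314 reads after grafting, a level of 5.74 to 7.60, beside 5.58 to 7.57 before it. The log2 fold change of -0.01 (SE 0.39, adjusted p = 0.984 by limma) stood 1.07 above the median of all genes, and centred on each library's median it was 0.88 (adjusted p = 0.0535), so the sign of this small change depends on the scaling. *Prelp* had a median level of 7.41 before and 5.07 after grafting, with 1 to 243 reads after it, and was lower in 7 of 7 donors. Its log2 fold change of -2.06 (SE 0.81) had an adjusted p of 0.0501 by limma, against 0.00511 when donors formed a replicate block, and it was -0.97 relative to the median of all genes. Left out 1 at a time, post-graft mouse 1, 2 or 4 or pre-graft mouse 3 of Experiment 2 brought *Prelp* past the threshold, and without post-graft mouse 3 the value was -1.20 (adjusted p = 0.134 by limma). *Ogn* had 46 to 493 reads, and its log2 fold change of -1.07 (SE 0.46, adjusted p = 0.0701) stood 0.02 above the median of all genes. *Ogn* was called without post-graft mouse 2, 5 or 6 or pre-graft mouse 3 of Experiment 2.

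After grafting of EOM cells, *Fmod* and *Aspn* were called higher than in pre-graft EOM, and *Prelp*, *Ogn* and *Bgn* lower. *Dcn* and *Lum*, already read in pre-graft EOM, differed by less than their errors, with a sign that depends on the scaling. Of the 9 members tested 2 were called higher and 3 lower, against 3.51% and 55.8% of the 13094 genes tested, so 3 of 9 lower is below the share of all genes. The median log2 fold change was -1.48 over all genes and -0.36 over the 9 members.

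*Fmod* had 0 to 8 reads before grafting and 10 to 839 reads in 4 of 7 post-graft EOM libraries, with none in the other 3. Its change was 4.13 on the log2 scale (SE 1.36, adjusted p = 0.0148 by limma), or 5.61 relative to the median of all genes. By reads 3 of 6 donors were higher after grafting, 1 lower and 2 without a read in either library. *Aspn* had 64 to 1455 reads in 6 of 7 post-graft EOM libraries and 0 in mouse 4 of Experiment 1, beside 0 to 54 before grafting. *Aspn* changed by 4.07 on the log2 scale (SE 1.28, adjusted p = 0.0116 by limma), with 5 of 6 donors higher. Both calls held in all 15 fits that left out 1 library, with adjusted p up to 0.0356 for *Fmod* and 0.0256 for *Aspn*.

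*Dcn* ran from 0 to 2497 reads after grafting (median 252), and its log2 fold change of -0.31 (SE 1.32, adjusted p = 0.841 by limma) had 4 of 6 donors higher. *Lum* had 8 to 436 reads in 4 of 7 libraries and none in the other 3, and its change was -0.36 on the log2 scale (SE 1.44, adjusted p = 0.830). Relative to the median of all genes, the changes of *Dcn* and *Lum* were 1.17 and 1.12. *Omd* (0 to 48 reads) and *Podn* (0 to 9 reads) gave -1.20 (SE 0.98, adjusted p = 0.281) and -0.08 (SE 0.90, adjusted p = 0.941), and *Kera* had no read in any post-graft EOM library.

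*Prelp* fell from a median level of 8.16 to 5.62, with 5 to 746 reads after grafting. A change of -2.78 on the log2 scale (SE 0.77, adjusted p = 0.0058 by limma) was -1.30 relative to the median of all genes, and centred on each library's median the adjusted p was 0.105. *Bgn* ran from 71 to 1601 reads and *Ogn* from 30 to 1847. The log2 fold changes of -1.41 (SE 0.52, adjusted p = 0.0258) for *Bgn* and -1.55 (SE 0.61, adjusted p = 0.0323) for *Ogn* were 0.07 and -0.08 relative to the median of all genes. Both calls were lost without post-graft mouse 3, 4, 5 or 6 of Experiment 2, and that of *Ogn* also without pre-graft mouse 5 of Experiment 1. Neither was called with the donor mouse as replicate block (adjusted p = 0.0585 for *Bgn* and 0.0813 for *Ogn* by limma), nor after centring (-0.16 and -0.30), and edgeR gave 0.055 and 0.39. The direction of *Bgn* and *Ogn* in post-graft EOM thus depends on the scaling.

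**Figure D3:**
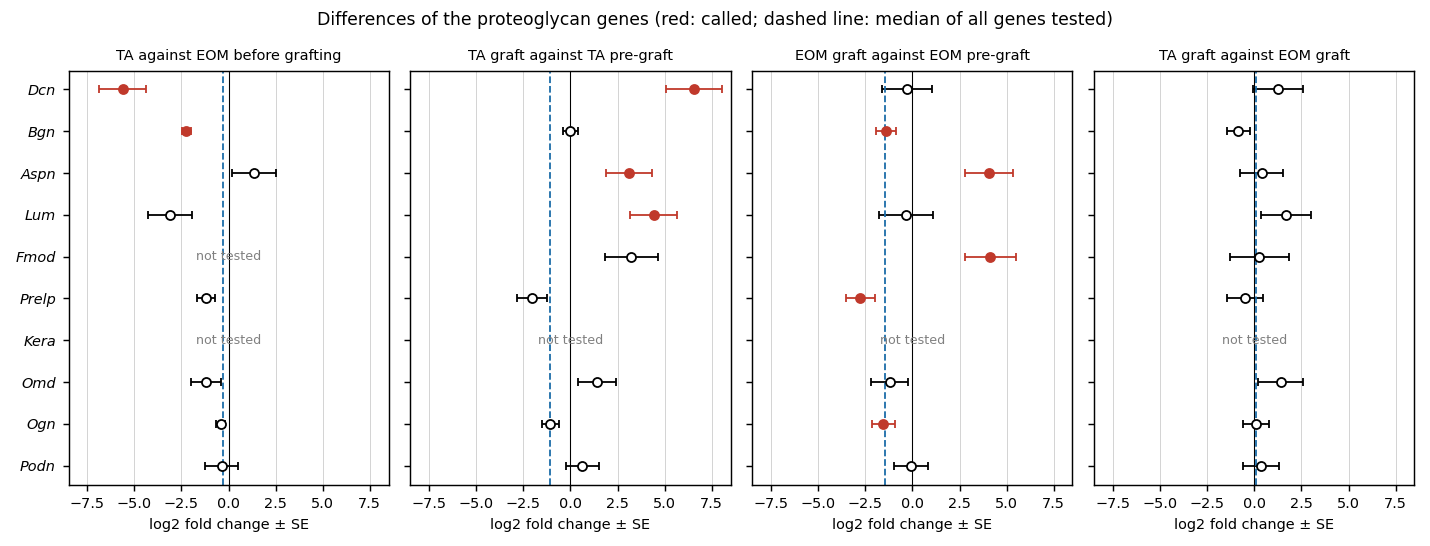
Log2 fold change of each member with its SE (horizontal axis) in 4 comparisons, first group over second. Red points were called by limma, and the dashed line is the median over all genes tested. In both post-graft comparisons *Ogn* sits at the dashed line, *Aspn* sits 4.19 (TA) and 5.54 (EOM) to its right, and *Prelp* sits to its left.

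After grafting, TA and EOM libraries did not differ in any member by the test. Of the 12377 genes tested 0 were called (0.0%), 452 had an unadjusted p under 0.05 by limma, and edgeR called 0 and DESeq2 3. *Bgn* showed the smallest error: its level ran from 5.69 to 9.56 in EOM and from 5.74 to 7.60 in TA, and the log2 fold change of TA over EOM was -0.85 (SE 0.59, adjusted p = 1.00 by limma), with 3 of 6 donors lower in TA. That of *Dcn* was 1.26 (SE 1.35) and that of *Lum* 1.67 (SE 1.33). A p that misses the threshold does not show that the muscles are alike here.

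The change of EOM cells minus that of TA cells was tested in 1 fit over 30 libraries, where 0.0554% of 14428 genes were called with a positive and 0.152% with a negative difference, and 0 of 9 members. *Dcn* had the lowest p of the members, with a difference of -6.87 (SE 2.19, p = 0.00329, adjusted p = 0.360 by limma), and -8.17 (adjusted p = 0.0674) without the pre-graft TA library of mouse 2 of Experiment 2. *Lum* gave -4.78 (SE 2.00, adjusted p = 0.617) and *Bgn* -1.40 (SE 0.66, adjusted p = 0.684). The *Dcn* and *Lum* differences rest on pre-graft TA libraries mostly at or near no read, so they do not measure size. The comparisons of post-graft with pre-graft libraries and of TA with EOM share libraries, so their member values are not independent of each other.

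Among post-graft libraries, mouse 4 of Experiment 2 (TA) and mouse 4 of Experiment 1 (EOM) had the make-up of pre-graft libraries. *Bgn*, *Ogn* and *Prelp* took all and 97.8% of their member reads, against 11.7% to 59.3% in the other 12. Neither had reads of *Aspn* or *Fmod*, and their *Dcn* reads were 0 and 29. Their *Pax7* reads were 530 and 1100, against 11 to 1066 in the others, and their reads of *Rgs5*, a pericyte marker, were 429 and 10, against 381 to 8416, so on neither gene did both stand outside the other libraries.

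Markers of other cells were also compared after grafting, with lists that went both ways, and those named here were chosen after their values were seen. In post-graft TA, *Smoc2* and *Mfap5* of the fibro-adipogenic list were called higher, 4 of 19 in all, while 7 of 19 were called lower, among them *Dpt* and *Serping1*. In post-graft EOM 2 of 20 were called higher and 10 lower. Over all genes tested, 3.79% were called higher and 30.9% lower in post-graft TA, and 3.51% and 55.8% in post-graft EOM. The median log2 fold change of this list was 0.40 in TA and -1.71 in EOM, beside -1.09 and -1.48 over all genes. The tendon list had 1 of 4 called higher in TA, and 1 higher and 2 lower of 5 in EOM. *Thbs4*, a tendon cell marker, was called higher in both (4.10 and 4.25 on the log2 scale), and *Tnmd*, the defining tendon marker, had reads in 3 of 7 libraries of each post-graft group (up to 102 in TA and 226 in EOM) against 1 of 16 pre-graft libraries. Endothelial markers were called higher in 8 of 9 in each muscle, and muscle stem cell markers lower in 13 of 14 in each. The summed endothelial level was 1137 to 6713 RPM in post-graft TA and 209 to 5729 RPM in post-graft EOM, against 19.2 to 2387 RPM before grafting. Mural markers were called higher in 3 (TA) and 2 (EOM) of 7 and lower in 0 and 1, and myofibre markers higher in 2 and 7 of 9. Schwann cell markers were called lower in 0 of 9 (TA) and 7 of 11 (EOM), and of macrophage markers 1 of 3 was called higher in TA and 1 of 7 lower in EOM. *Pdgfra* had reads in 3 of 7 libraries of each post-graft group (up to 47), against 5 of 8 EOM and 1 of 8 TA libraries before grafting. The part of these cells in the member changes was not tested.

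Of the 7 other genes of the wider family, *Ecm2*, beside *Aspn* on chromosome 13, had reads in 28 of 30 libraries and *Epyc* (class III), *Optc* (class III), *Chad* and *Tsku* (class IV) in 5 to 8. *Ecm2* had 61 to 143 reads in pre-graft EOM and 0 to 68 in pre-graft TA, which gave -1.93 on the log2 scale (SE 0.62, adjusted p = 0.0587 by limma), lower in TA in 7 of 7 donors. In post-graft TA it had 20 to 206 reads and was called higher (2.13, SE 0.75, adjusted p = 0.0315), in 7 of 7 donors. In post-graft EOM it gave -1.64 (SE 0.87, adjusted p = 0.0991). *Epyc*, beside *Kera* on chromosome 10, had up to 92 reads in 5 of 8 pre-graft EOM libraries and 0 in all TA libraries. Its log2 fold change of TA over EOM before grafting, -2.26 (SE 0.90, adjusted p = 0.125 by limma), was not called. Its mean in pre-graft EOM was 4.33-fold that of 3 reads a TA library, a bound that was not tested.

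Collagens and the enzymes that assemble them were compared as the partners of these proteoglycans. Before grafting, 1 of 13 tested collagens was called higher in TA, *Col5a3* (1.32 on the log2 scale, adjusted p = 0.0014 by limma), and 3 lower: *Col16a1* (-2.43), *Col6a2* (-1.77) and *Col6a1* (-1.12). Of 16 tested genes of collagen assembly and crosslinking, 0 were called higher and 3 lower, the lysyl oxidases *Loxl2* (-1.91) and *Loxl1* (-1.09) and the lysyl hydroxylase *Plod2* (-1.33). The median over the list was -0.84 for collagens and -0.44 for assembly, beside -0.30 for all genes. Of 24 tested genes that build glycosaminoglycan chains, 0 were called. Of 19 tested ligands and receptors bound by the family, *Tgfb2* was called higher in TA (1.35) and *Ctgf* (-1.34) and *Igf1r* (-1.18) lower.

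In post-graft TA, 3 of 14 collagens were called higher, *Col1a1* (4.74, adjusted p = 0.0028 by limma), *Col6a3* (4.08) and *Col1a2* (2.28), and 5 lower, among them *Col6a1* (-3.36) and *Col5a3* (-2.35). For *Col1a1* reads went from 0 to 329 before grafting to 43 to 358 after it. In post-graft EOM 0 of 13 collagens were called higher and 4 lower, *Col16a1* (-3.87), *Col5a1* (-3.46), *Col6a1* (-2.55) and *Col6a2* (-1.69). Assembly genes were called higher in 0 of 17 (TA) and 1 of 16 (EOM, *Adamts2*, 2.69) and lower in 4 and 6, with *Loxl3* (-2.78 and -2.70) and *Loxl1* among those lower in both. Chain synthesis genes were called higher in 1 of 24 in each muscle and lower in 6 (TA) and 10 (EOM), among them *Ust* (-2.64 and -3.18) and *Chst14* (-2.94 and -2.61), which act on chondroitin and dermatan sulfate. The ones called higher were *B4galt1* (1.28, TA, named after its value was seen) and *Chst1* (2.81, EOM), a keratan sulfate sulfotransferase. Of the ligands and receptors *Kdr* was called higher in both (2.66 and 5.34), and 10 of 19 (TA) and 10 of 20 (EOM) lower, among them *Igf1* (-2.55 and -3.16) and *Met* (-2.36 and -2.64). The list medians ran from -1.45 to -1.02 in post-graft TA, beside -1.09 for all genes. In post-graft EOM they ran from -1.48 to -1.35, beside -1.48 for all genes, except for collagens at -0.55. Over all genes tested, 30.9% (TA) and 55.8% (EOM) were called lower.

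Library-to-library variation within groups was summarised by the mean level of the 7 members with reads in at least 15 of 30 libraries, after removal of group means. The 5 genes most like it over the 30 libraries were *Col1a2* (Pearson r = 0.837, Spearman rho = 0.853), which encodes a chain of collagen I, *Rnase4* (0.825 and 0.722), the protease gene *Ctsk* (0.805 and 0.784), *Smoc2* (0.788 and 0.732) and *Mfap5* (0.773 and 0.731). Without the 2 libraries farthest from the median, r was 0.806, 0.811, 0.783, 0.733 and 0.726 in the same order. Levels in a library share its depth and its cells, and these values are a description.

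**Figure D4:**
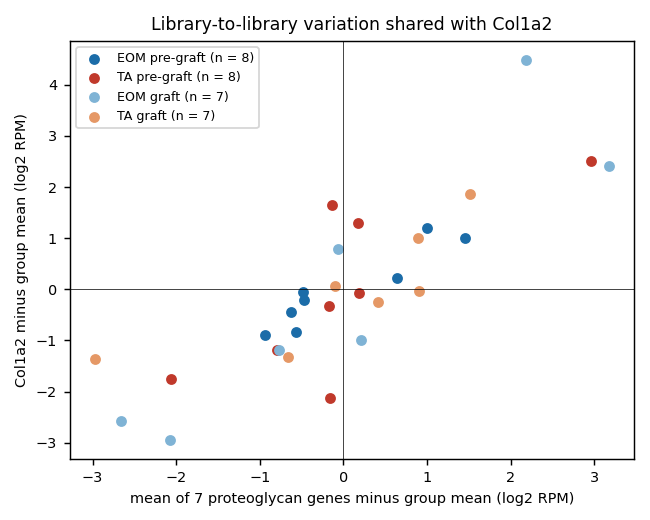
Deviation of *Col1a2* from its group mean (vertical axis, log2 RPM) against the mean deviation of 7 members (horizontal axis, log2 RPM), 1 point a library, coloured by group. Pearson r over the 30 libraries is 0.837, and the 3 highest points are mice 1 and 2 of Experiment 2 in post-graft EOM and mouse 2 of Experiment 2 in pre-graft TA.

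Some members appeared together library by library, and others did not. Of 30 libraries 16 had at least 10 reads of *Lum*, and all 16 had at least 10 of *Dcn*, its neighbour on chromosome 10, which 21 libraries had. At least 10 reads of *Fmod* were found in 10 libraries, of which 10 also had *Aspn* and 9 *Dcn*. The 3 libraries with *Kera* all had *Dcn*. *Dcn* and *Aspn* shared 17 libraries, with 4 holding *Dcn* and 5 *Aspn* without the other, and *Aspn* and *Lum* shared 13, with 9 holding *Aspn* and 3 *Lum* without the other. *Bgn* and *Ogn* had at least 10 reads in all 30 libraries and *Prelp* in 27.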

How the data were processed

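RNA libraries of EOM and TA MuSCs were analysed, and bisulfite libraries are not analysed here. The authors trimmed reads with Trim Galore 0.4.4, aligned them to GRCm38 with HISAT2 2.1.0 and deposited log2 RPM values from Seqmonk. The counting tool, its strand setting and the annotation release are not given in the sources used here. The authors also deposited per-library quality tables, with read counts and the percent of reads in each class.

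Each library's lowest value marks genes with no reads and equals 0.9 reads, and reads recovered on that scale came out whole within 0.05 for 99.994% of values. Of entries with the same gene ID the one with most reads was kept, which leaves 25900 of 25965. Genes above log2 RPM 1 in at least 4 compared libraries were tested with limma 3.58.1 (R 4.3.3), trend over the mean, no covariate, two-sided, adjusted by Benjamini and Hochberg. The step was run on simulated reads with the same spread set for every gene and no donor effects. That run cannot vouch for the calls of members read in only some libraries. Alternatives include edgeR 4.0.16 and DESeq2 1.42.0 on recovered reads. The 10 libraries the study did not pass were left out of comparisons. Members, lists, motifs and the rule for named genes (all members, and of each partner list up to 4 called genes with the largest change) were chosen with earlier results of these data known. Lengths are of joined exons (GENCODE M21). Libraries of 1 donor mouse form the replicate block, a pairing that comes from the study's design, and the correlation of their deviations from group means ran from -0.07 to 0.18 over the 7 donors of the pre-graft comparison.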

Additional observations from a re-analysis of the deposited data

Results flagged for a closer look

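Within groups of 7 or 8 libraries, 9 of 38 combinations of member and group had a library whose gap to the nearest other exceeded Dixon's 95% critical value. Chance gives about 1 in 20 for normally distributed values. Several of these groups hold libraries without a read, which are not so distributed, so that rate is no yardstick here and the 9 are a description. In pre-graft TA, mouse 2 of Experiment 2 was high in *Dcn* (9.98 log2 RPM) and *Lum* (6.64), and mouse 3 of Experiment 2 was low in *Prelp* (3.01). In pre-graft EOM, mouse 1 of Experiment 2 was high in *Fmod* (2.26, from 8 reads) and mouse 3 of Experiment 1 in *Kera* (6.50, from 172 reads). In post-graft TA, mouse 4 of Experiment 2 was low in *Dcn* (-0.97) and *Aspn* (-0.97), both without a read, and mouse 3 of Experiment 2 in *Prelp* (-0.29, from 1 read). In post-graft EOM, mouse 4 of Experiment 1 was low in *Aspn* (-1.24, no read).

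Among libraries that the study did not pass, *Kera* had 92 reads in post-graft EOM of mouse 1 of Experiment 1 and 17 reads in pre-graft TA of mouse 1 of Experiment 1.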

How the results depend on the processing

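Before grafting, 1 member instead of 2 was called lower in TA in Experiment 1 alone, in Experiment 2 alone, by edgeR and by DESeq2. With donors as replicate block 3 were called lower, and leaving out 1 library gave 2 to 3. In post-graft TA, 1 member instead of 3 was called higher in Experiment 2 alone, 2 with the experiment as covariate, in 1 fit over 4 groups, with scaling without mitochondrial genes, after centring, by edgeR and by DESeq2, 4 with log2 of RPM plus 1, and 2 to 4 when 1 library was left out. There, 1 instead of 0 was called lower with log2 of RPM plus 1, without a filter, with a stricter filter and with donors as replicate block, with 0 to 2 when 1 library was left out. In post-graft EOM, 1 instead of 2 was called higher with the stricter filter, which *Fmod* did not pass. There, 2 instead of 3 were called lower without a filter and with the experiment as covariate. The number was 1 with the replicate block and with scaling without mitochondrial genes, and 0 after centring, by edgeR and by DESeq2. It was 1 to 3 when 1 library was left out. *Bgn* and *Ogn* in post-graft EOM turned direction in edgeR (0.055 and 0.39) and DESeq2 (0.12 and 0.45). Of the values for single members in the other settings, 491 kept their side of the threshold, 24 lost it, 10 gained it and 4 turned direction. These counts go by the threshold, and values that were not called can also change sign, as *Bgn* did in post-graft TA. Fits that left out 1 library are not in these counts. Beside the calls given in the report, the replicate block changed no other call of a member. Experiment 1 alone was run before grafting only, and it and edgeR without pre-graft TA mouse 2 of Experiment 2 were chosen after seeing the data. The cause of these changes was not tested.

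Scaling moved the split of all genes. Genes called higher and lower numbered 460 and 7302 in post-graft EOM, against 871 and 634 after centring, 907 and 380 by edgeR and 1196 and 546 by DESeq2. In post-graft TA they numbered 496 and 4046, against 1003 and 743, 782 and 402, and 1151 and 545. Before grafting they numbered 166 and 437, against 234 and 275, 247 and 191, and 323 and 259. Post-graft libraries come from few cells, which limits how finely low members can be read.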
